A study of Rattus norvegicus with 27 samples.

Results

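GABA-A receptors are chloride channels opened by the transmitter GABA and built from several subunits. The subunits described here are Gabra2, Gabra3, Gabra4, Gabra5, Gabrb1, Gabrb2 and Gabrd, chosen by their gene symbol: 7 of the 17321 genes counted in tissue punches of the rat cerebellar interpositus nucleus (IP). The study asked how early-life stress and sex act on the adult cerebellum. Long-Evans rats had either normal rearing (NT) or limited bedding (LB), a stressor that gave the dam reduced bedding and nest material between postnatal days 2 and 9. Tissue was taken on postnatal day 70. The NT groups held 5 females and 7 males, and the LB groups 7 females and 8 males. Each animal gave 1 library of mRNA, from a 2 mm punch through 3 adjacent sections of 1 mm, so a punch can hold cerebellar cortex and white matter beside the nucleus. Since RNA came from whole punches, fewer cells of a type and less RNA per cell cannot be told apart.

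In such a channel, alpha and beta subunits together form the GABA site. The alpha subunit sets drug sensitivity and where on the neuron the receptor sits. Gabra2 and Gabra3 encode alpha subunits of synaptic, benzodiazepine-sensitive receptors, Gabra4 an alpha subunit that often joins the delta subunit outside the synapse, and Gabra5 an alpha subunit known for tonic inhibition in the hippocampus. Gabrb1 and Gabrb2 encode beta subunits, which are needed for assembly and surface delivery. Gabrd encodes the delta subunit, which takes the place of a gamma subunit in receptors outside the synapse that carry tonic current and respond to neurosteroids. In the cerebellum the delta subunit is best known from granule cells, where it pairs with the product of Gabra6.

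The genes lie in several clusters in rn6, the genome build of the count table. Gabrb1 (chr14:38643383-39112592, minus strand, 9 exons), Gabra4 (chr14:39154541-39229128, plus strand, 9 exons) and Gabra2 (chr14:39662441-39798928, plus strand, 10 exons) are on chromosome 14, with 41.9 kb between Gabrb1 and Gabra4. Gabra5 (chr1:112833989-112946731, minus strand, 11 exons) is on chromosome 1. Gabrb2 (chr10:27975353-28187368, plus strand, 9 exons) lies 113 kb from Gabra6. Gabra3 is on the X chromosome (chrX:152415134-152642538, minus strand, 10 exons) and Gabrd on chromosome 5 (chr5:172797479-172809374, minus strand, 9 exons). Counts were made over exons, and the annotated exon length ran from 1425 bases for Gabrb2 to 2569 bases for Gabra5.

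Promoters of 3 of these genes are shown because the levels of the 2 beta subunits moved in opposite ways across animals and Gabra5 had the largest difference between groups. Each sequence is the RefSeq promoter of build GRCr8, 250 bases before to 50 after the annotated start, written 5′ to 3′ along the gene. Such a sequence was found for 6 of the 7 genes; Gabra2 had none. Capitals in Gabrb1 (chr14:36902844-36903143, minus strand) and Gabrb2 (chr10:27439543-27439842, plus strand) mark every stretch of 10 or more bases that both share. Capitals in Gabra5 (chr1:117516557-117516856, minus strand) mark each CG.
Gabrb1: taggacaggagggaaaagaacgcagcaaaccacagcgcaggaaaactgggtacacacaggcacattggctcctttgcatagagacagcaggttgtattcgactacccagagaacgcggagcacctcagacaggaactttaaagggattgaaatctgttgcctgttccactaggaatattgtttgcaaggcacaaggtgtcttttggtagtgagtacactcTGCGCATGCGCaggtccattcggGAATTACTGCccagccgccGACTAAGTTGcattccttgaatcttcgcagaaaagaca
Gabrb2: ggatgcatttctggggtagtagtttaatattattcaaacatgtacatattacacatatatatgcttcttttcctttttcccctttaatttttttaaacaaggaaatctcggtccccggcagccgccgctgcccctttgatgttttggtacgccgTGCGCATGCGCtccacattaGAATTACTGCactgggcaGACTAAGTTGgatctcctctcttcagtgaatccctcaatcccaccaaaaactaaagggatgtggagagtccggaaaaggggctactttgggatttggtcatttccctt
Gabra5: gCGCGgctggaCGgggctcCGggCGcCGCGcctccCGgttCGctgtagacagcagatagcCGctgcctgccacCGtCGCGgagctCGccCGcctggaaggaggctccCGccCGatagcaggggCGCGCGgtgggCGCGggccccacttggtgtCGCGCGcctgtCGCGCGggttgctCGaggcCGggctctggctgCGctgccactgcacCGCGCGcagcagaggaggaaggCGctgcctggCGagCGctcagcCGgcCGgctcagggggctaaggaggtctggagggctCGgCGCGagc
The beta promoters shared 3 such stretches in the same order, TGCGCATGCGC, GAATTACTGC and GACTAAGTTG. The first holds the palindrome known as the recognition sequence of the factor NRF1. It starts 30 bases before the start of Gabrb1 and 96 bases before that of Gabrb2, and occurs on either strand in 0.598% of 33469 promoters. The other stretches occur in 0.0388% and 0.0149% of them, and no further member held any of the 3. The Gabra5 promoter is 76.3% G and C with 42 CG, against a median of 51.7% and 7 CG over all promoters, and 2.4% of promoters have as many. Gabrd (40 CG) and Gabra4 (35 CG) are of the same kind, Gabrb1 has 11, Gabrb2 has 9 and Gabra3 has 0. Of the motifs searched on both strands, TATAAA was in Gabra3 alone (14.2% of all promoters), CCAAT in Gabra3 and Gabrb1 (37.5%), and GGGCGG in Gabra4, Gabra5 and Gabrd (33.1%). These matches describe letters and were not tied to any level below.

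Total counts ran from 11836684 to 24169170 per library (median 16034036). Levels are given as CPM, the count scaled to a common library total after normalization, and, where genes are compared with each other, as RPKM, which is CPM per kilobase of exon. The punches differed in makeup. Markers of granule cells were abundant in every library, with 8 of 8 detected and a summed level of 6116 to 6773 CPM in NT females, 1882 to 5705 in NT males, 4280 to 6526 in LB females and 3513 to 6333 in LB males. The 5 deep nucleus markers summed to 451.5 to 536.7 CPM in NT females and 484.3 to 4018 in NT males. In LB they summed to 475.7 to 769.1 CPM in females and 513.4 to 809 in males. Among them Slc17a6, a defining marker of glutamatergic nuclear neurons, was low, with a median of 2.77 CPM. It stayed at or below 3.26 CPM in all females, while its median was 11.96 CPM in NT males and 5.58 CPM in LB males and NT male 6112 reached 380.3 CPM. A forebrain score, the mean centred log2 level of 5 forebrain neuron markers, was 0.477 to 1.19 in NT males 3113 and 6111 and LB males 122, 123, 7122 and 9123, and at most 0.137 in the other 21 animals. The summed level of these markers did not follow the score. It was 300.3 to 336.4 CPM in NT females and 215.1 to 387.6 in NT males. In LB it was 271.7 to 462.6 CPM in females and 308.7 to 399.5 in males. LB female 5022 had the highest sum with a score of -0.504. LB female 5022 also stood apart in the balance of long and short transcripts, as given below. For members past the threshold, values with the score in the model are given as well.

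Per length, Gabrd led the 7 subunits by far. Its RPKM was 65.1 to 343.1 (median 258.3 over 27 animals), above every other member in 27 of 27 animals. Gabrb1 (median RPKM 14.7) and Gabrb2 (13.03) came next, with Gabrb1 the higher in 13 of 27 animals, so their order did not hold beyond the spread. Gabra4 followed at a median RPKM of 6.57, Gabra3 at 5.16 and Gabra2 at 4.81. Those neighbours overlapped as well: Gabra4 was above Gabra3 in 16 animals and Gabra3 above Gabra2 in 16. Gabra5 was lowest at a median RPKM of 1.74, below Gabra2 in 20 of 27 animals.

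The members also differed in how much they varied between animals. Gabrb1 spanned 3.22-fold from the lowest to the highest animal and Gabrd 5.27-fold. Gabra3 spanned 15.3-fold, Gabrb2 33.2-fold, Gabra2 44.7-fold and Gabra4 53.8-fold. Gabra5 spanned 233.7-fold, from 8 counts in LB male 7121 to 1877 counts in LB male 122. Every member was above 3 counts, taken as the limit of detection, in every animal.

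**Figure D1:**
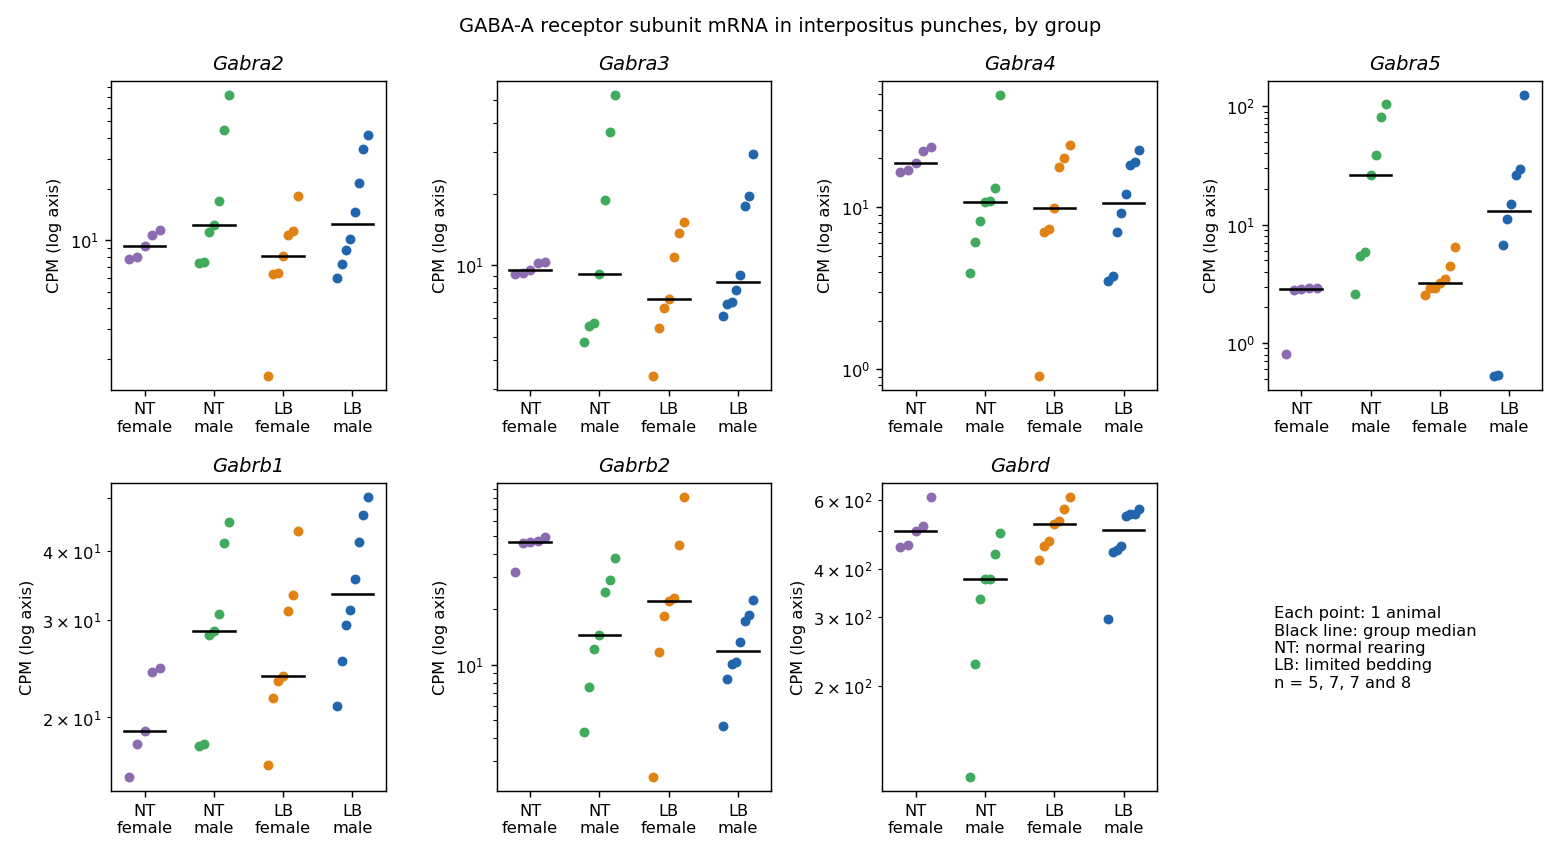
CPM of each subunit (log axis) in each animal, by group, with the group median as a black line. Gabra5 lies between 0.804 and 6.52 CPM in all females and reaches 103.9 CPM in NT males and 123.9 CPM in LB males, while Gabrb2 lies at 32.0 CPM or more in every NT female.

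Gabra5 showed the largest sex difference. In NT females it was at 0.804, 2.78, 2.84, 2.90 and 2.91 CPM. In NT males it ranged from 2.59 to 103.9 CPM (median 26.3), in LB females from 2.55 to 6.52 CPM (median 3.20) and in LB males from 0.531 to 123.9 CPM (median 13.1). In NT, 6 of 7 males were above every female and 1 fell among them. In LB, 6 of 8 males were above every female and 2 lay below all of them. The log2 fold change of males over females was 3.95 in NT (SE 1.04, adjusted p = 0.0181, edgeR quasi-likelihood test, with p adjusted over all genes and a threshold of 0.05), or 15.4-fold. In LB it was 2.84 (SE 0.843, adjusted p = 0.108), which did not pass, although DESeq2 passed it (2.82, adjusted p = 0.0204, in a range of 0.0204 to 0.977 over settings that kept all animals). Over all animals it was 3.39 (SE 0.672, adjusted p = 0.00166).

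Gabra5 was the only member past the threshold in NT, 1 of 7, where 15.2% of all 12107 genes tested passed. In LB 0 of 7 passed, where 0.248% of all genes did. At an unadjusted p under 0.05 there were 5 members in NT and 2 in LB, and limma-voom passed 0 in both. No member had non-overlapping groups in either sex comparison, where this held for 7.24% of genes in NT and 0.273% in LB. The sex difference in NT was not shown to differ from that in LB for any member, since 0 of 7 passed in the interaction (lowest unadjusted p 0.0914, Gabrd), where 0.0% of genes did and both other tools also passed 0.

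The Gabra5 difference was smaller but past the threshold in NT with the forebrain score in the model (log2 fold change 3.00, SE 0.717, adjusted p = 0.0101), an alternative chosen after seeing the data. In LB it was then 1.16 (SE 0.633, adjusted p = 0.357). LB male 122 and NT male 6111, with the highest Gabra5 of their groups, were among the 6 males with high forebrain scores. Without NT female 1011, the lowest of her group, the NT value was 3.72 with an adjusted p of 0.0528. The NT adjusted p ranged from 0.000453 to 0.729 over 13 settings with all animals, 9 of which passed. With sets of like sample titles as a random block it was 3.09 (SE 1.48, adjusted p = 0.208).

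Gabrb2 was lower in males. It was at 32.0, 45.9, 46.7, 46.7 and 49.3 CPM in NT females, against 4.33 to 37.8 CPM (median 14.6) in NT males. LB females ranged from 2.46 to 81.6 CPM (median 22.2) and LB males from 4.67 to 22.5 CPM (median 11.9). Below every NT female lay 6 of 7 NT males. In LB the groups overlapped fully because LB female 5022 held the lowest value of all 27 animals and LB female 8021 the highest. Over all animals the log2 fold change was -1.20 (SE 0.352, adjusted p = 0.0144), and -1.34 (SE 0.347, adjusted p = 0.00746) with the forebrain score in the model. Neither sex comparison passed by itself (NT -1.25, SE 0.524, adjusted p = 0.0981; LB -1.15, SE 0.471, adjusted p = 0.213). Without LB female 5022 both did, at -1.25 in NT (adjusted p = 0.0459) and -1.35 in LB (adjusted p = 0.0457). Over settings with all animals the adjusted p ranged from 0.0622 to 0.698 in NT and from 0.146 to 0.977 in LB.

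Gabrb1 went the other way, at a smaller scale. NT females had 15.6, 17.9, 18.9, 24.2 and 24.6 CPM, and NT males 17.8 to 45.2 CPM (median 28.7). LB females had 16.4 to 43.5 CPM (median 23.7) and LB males 21.02 to 50.2 CPM (median 33.5). The groups overlapped in both treatments, with 5 of 7 NT males above every NT female. Over all animals males were 1.38-fold higher (log2 fold change 0.46, SE 0.167, adjusted p = 0.0404), a call that failed when any 1 of 13 animals was dropped (adjusted p 0.0522 to 0.0774). They were LB males 121, 122, 123 and 9123, NT females 1011, 2011 and 2012, NT males 3111 and 3113, and LB females 5021, 8021, 8022 and 8024. It also failed with the forebrain score in the model (0.40, SE 0.176, adjusted p = 0.0837).

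Gabra2 was higher in males over all animals, at a log2 fold change of 1.19 (SE 0.383, adjusted p = 0.023). NT females had 7.76, 8.00, 9.27, 10.7 and 11.6 CPM and NT males 7.37 to 71.5 CPM (median 12.4). LB females had 1.60 to 18.3 CPM (median 8.12) and LB males 5.97 to 41.5 CPM (median 12.5). Male medians were above female medians in NT (12.4 against 9.27 CPM) and in LB (12.5 against 8.12 CPM), though the groups overlapped. The larger difference in means was carried by NT males 6111 and 6112 and LB males 122 and 9123, all above 34 CPM. The adjusted p was 0.0551 without NT male 6111, and with the forebrain score in the model the log2 fold change was 0.52 (SE 0.264, adjusted p = 0.137). Over settings with all animals the adjusted p ranged from 0.00596 to 0.711.

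Gabra2, Gabra5 and Gabrb1, which were higher in males, and Gabrb2, which was lower, made 4 of 7 members past the threshold over all animals, where 29.3% of all genes tested passed. Those comparisons share their animals with the sex comparisons in NT and LB. DESeq2 also passed 4, while limma-voom passed 1. With the sets of like sample titles as a random block 0 passed, at adjusted p = 0.136 for Gabra5, 0.153 for Gabra2, 0.154 for Gabrb1 and 0.104 for Gabrb2. Marker lists moved with sex in the same fit. Of the deep nucleus markers 4 of 5 were higher in males over all animals (median log2 fold change 3.07), of the oligodendrocyte markers 4 of 6 (0.79) and of the meningeal markers 4 of 4 tested (0.79). Both brainstem motor neuron markers tested were higher (3.93), with a summed level of 0.453 to 0.568 CPM in NT females and up to 206.2 CPM in NT male 6112. Of the microglial markers 4 of 6 were higher (0.52), of the forebrain markers 2 of 5 (0.16), and of the astrocyte and Bergmann glia markers 3 of 7 were higher and 1 lower (0.39). Of the granule cell markers 4 of 8 were lower (-0.42), as were 4 of 7 Purkinje cell markers (-0.39). With a score of deep nucleus minus granule cell markers in the model, 0 members passed in any sex comparison, and Gabra5 had a log2 fold change of 1.30 over all animals (adjusted p = 0.487, in a range of 1.32e-06 to 0.487 over settings). Since those markers themselves moved with sex, tissue makeup and sex cannot be told apart in that model. None of the deep nucleus or granule cell markers was at 0 in a whole group, and of the meningeal markers Ogn was at 0 in both female groups and in LB males.

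Gabra3, Gabra4 and Gabrd did not pass in any sex comparison of the main edgeR fit, though each passed in some other setting. Gabra3 was nearly constant in NT females, at 9.21 to 10.4 CPM, and ranged from 4.77 to 52.3 CPM in NT males (log2 fold change 0.97, SE 0.53, adjusted p = 0.202). In LB females it was at 3.43 to 15.3 CPM (median 7.21) and in LB males at 6.11 to 29.6 CPM (median 8.50). Gabra4 was at 16.5 to 23.5 CPM in NT females, above 6 of 7 NT males, of which 6111 alone was higher at 49.2 CPM and the next had 13.2 CPM. Its log2 fold change over all animals was -0.24 (SE 0.381, adjusted p = 0.651). It became -0.93 (SE 0.268, adjusted p = 0.0132) with the forebrain score in the model, beside a range of 0.0132 to 0.973 over settings with all animals.

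Gabrd held its level in most animals. NT females had 455.6, 461.0, 499.3, 514.9 and 612.1 CPM, LB females 420.0 to 612.4 CPM (median 522.6) and LB males 296.4 to 569.5 CPM (median 502.4). NT males were lower at 116.2 to 493.3 CPM (median 375.6), with 6 of 7 below every NT female. The log2 fold change of males over females was -0.59 in NT (SE 0.217, adjusted p = 0.0602) and -0.08 in LB (SE 0.193, adjusted p = 0.848). The NT difference passed when NT male 3112 (adjusted p = 0.0257), NT male 4111 (0.0464) or LB female 5022 (0.049) was left out, and its adjusted p ranged from 0.0368 to 0.891 over settings with all animals.

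**Figure D2:**
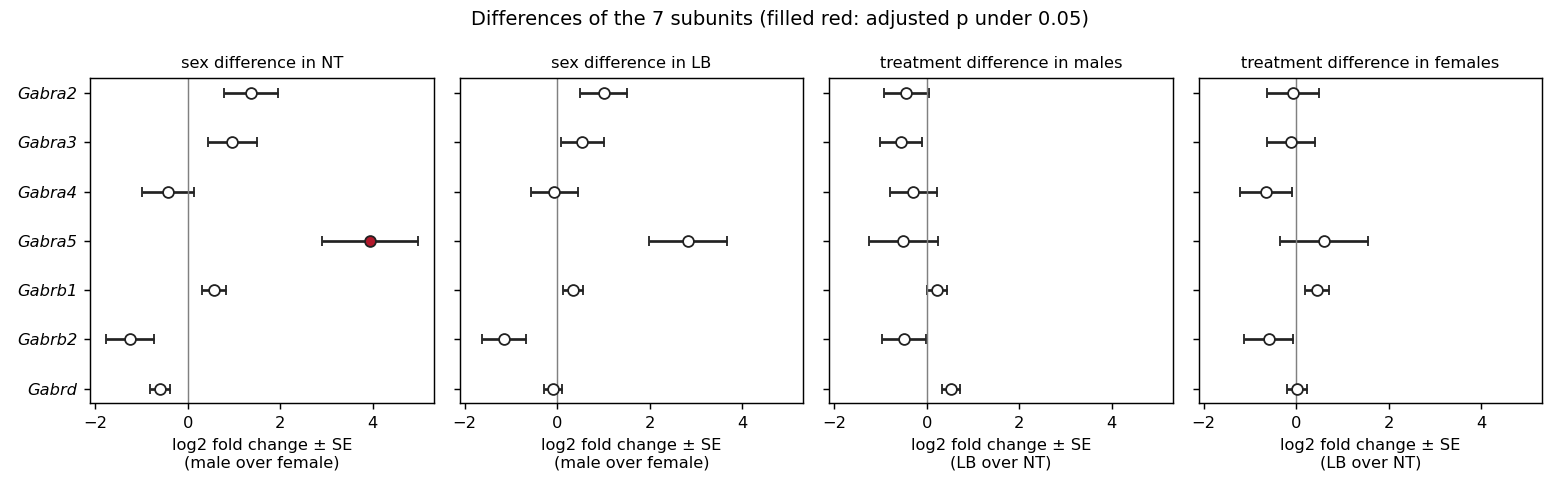
Log2 fold change with its SE for the 7 subunits in the sex differences (males over females) and treatment differences (LB over NT). Gabra5 in NT, at 3.95, is the 1 value filled red as past an adjusted p of 0.05, and the treatment differences lie between -0.65 and 0.61.

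Limited bedding gave no call for any member. Over all animals 0 of 7 passed, where 0.00826% of genes did. The count was also 0 of 7 in males (0.0% of genes) and in females (0.00826% of genes), and DESeq2 and limma-voom passed 0 in each. At an unadjusted p under 0.05 there were 0 members over all animals, 0 among females and 1 among males. That 1 was Gabrd, higher in LB males than in NT males by a log2 fold change of 0.52 (SE 0.195, unadjusted p = 0.0125, adjusted p = 0.462). LB males were above every NT male in 4 of 8 animals. Among females Gabrd was level, at 0.01 (SE 0.219, adjusted p = 0.989). These errors leave room for changes of considerable size in the noisier genes, such as Gabra5 in females (0.61, SE 0.948) and Gabra4 in females (-0.65, SE 0.567). Sample titles fall into 10 sets by their leading digits, each of 1 sex and 1 treatment, with 2 or 3 sets in a group, and were fitted as a random block above.

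The makeup of the 4 alpha subunits differed from animal to animal. In NT females Gabra4 held 49.8% ± 4.83 (SD, n = 5) of their summed RPKM, Gabra3 25.6% ± 1.05, Gabra2 20.1% ± 3.804 and Gabra5 4.55% ± 1.81, with Gabra4 the largest in 5 of 5. In NT males Gabra4 held 20.8% ± 10.2 and Gabra5 28.9% ± 19.2 (n = 7), and Gabra5 was the largest in 3 animals, Gabra4 in 2, and Gabra2 and Gabra3 in 1 each. LB females had Gabra4 at 35.2% ± 14.2 and Gabra5 at 11.2% ± 8.38 (n = 7), and LB males had 23.6% ± 8.43 and 22.2% ± 17.1 (n = 8). The Gabra5 share reached 56.8% in NT male 3113 and 53.2% in LB male 122. It was also 28.4% in LB female 5022, whose Gabra5 level of 3.20 CPM was the median of her group while her Gabra4 was at 0.914 CPM. A share can therefore rise because the other subunits are low.

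Between the beta subunits the balance turned over. Gabrb2 held 74.3% ± 6.45 of their sum in NT females, with 64.1% as the lowest. It held 43.3% ± 21.7 in NT males, 51.0% ± 26.3 in LB females and 33.4% ± 14.5 in LB males. Gabrb2 was the larger in 5 of 5 NT females, 3 of 7 NT males, 4 of 7 LB females and 2 of 8 LB males. Shares are descriptions and were not tested.

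**Figure D3:**
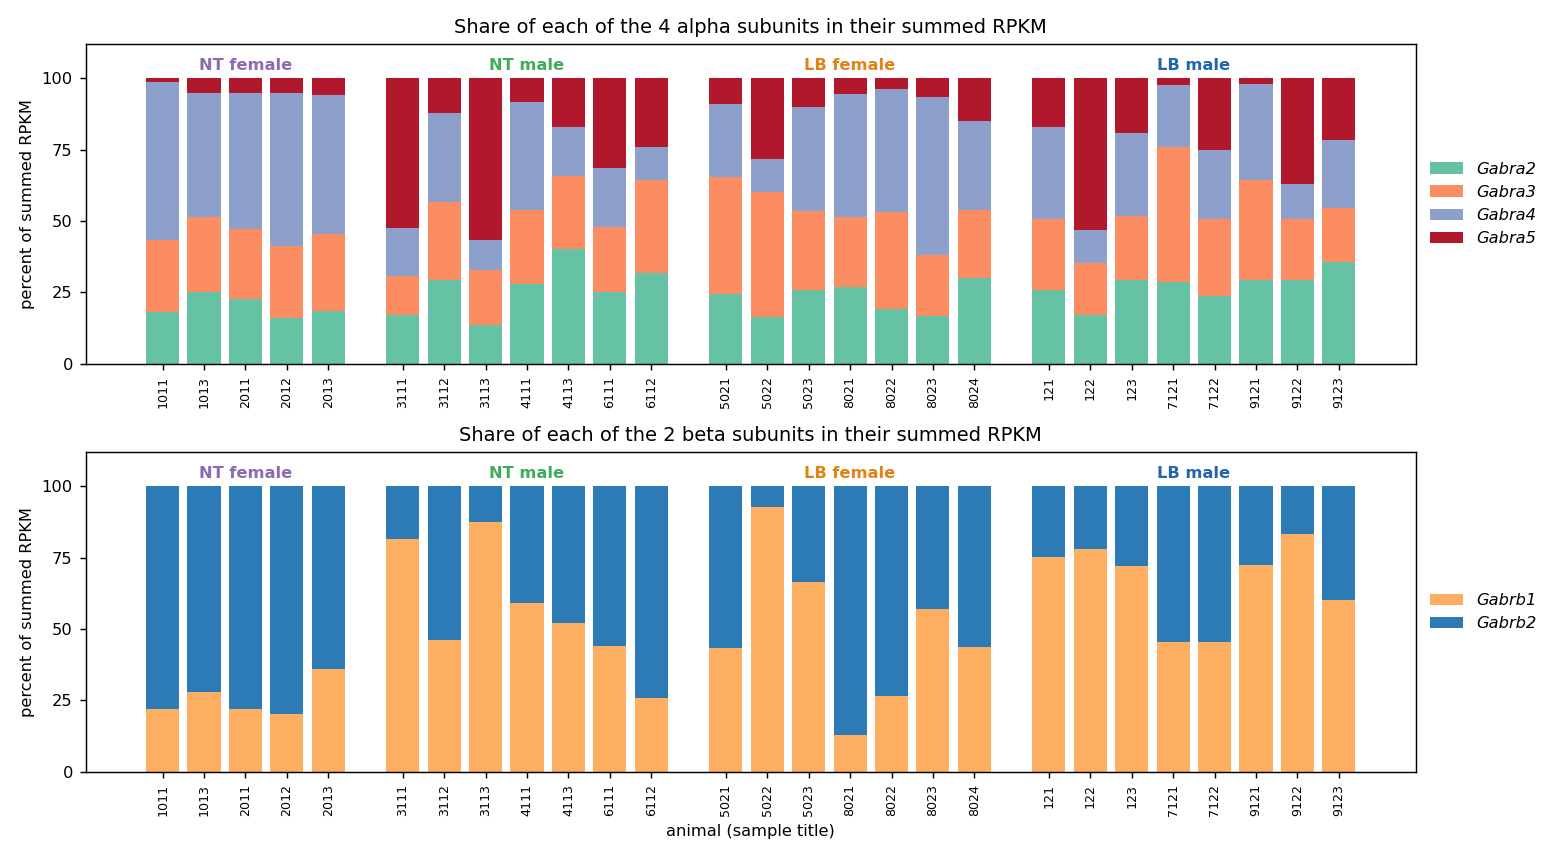
Share in percent of the summed RPKM of the 4 alpha subunits (upper panel) and of the 2 beta subunits (lower panel) in each animal, named by its sample title and set out by group. In NT females Gabra4 is the largest alpha share and Gabrb2 holds at least 64.1% of the beta sum, while in the other groups the bars differ widely between animals.

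Across the 27 animals the members fell into sets. Gabra2 and Gabra3 ran together (Pearson r = 0.89 of log2 values), and each with Gabra5 (0.73 and 0.65) and Gabra4 (0.68 and 0.70). Gabrb1 and Gabrb2 ran in opposite ways (-0.75), and Gabra4 ran with Gabrb2 (0.72). Gabrd ran against Gabra2 (-0.63), Gabra3 (-0.67) and Gabra5 (-0.57), less so by rank, with Spearman's rho at -0.35, -0.34 and -0.32. These values describe libraries that share makeup and RNA balance.

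Each member was also related to library measures. A marker score is the mean log2 level of a cell type's markers. The gene length index is the median level of the 10% of genes with the longest exons (4791 bases or more) minus that of the 10% with the shortest (1024 bases or less), and was added after the data had been seen, as was the forebrain score. In all 35 relations were computed, with a two-sided permutation test of 100000 resamples. The resamples shuffled all animals across groups and title sets. Their p-values thus do not separate differences between groups from relations within them, and no p was computed for r within groups. Gabra5 rose with the deep nucleus score (r = 0.68, rho = 0.86, p = 0.00012, adjusted p = 0.0006), and r was 0.71 without the 2 animals farthest out and 0.52 within groups. Gabra5 fell with the granule cell score (r = -0.78, rho = -0.75, p = 1e-05, the smallest the resamples can give, adjusted p = 0.000117), at -0.78 without 2 animals and -0.67 within groups. Gabrb2 rose with the granule cell score (r = 0.48, p = 0.0103, adjusted p = 0.0279; rho = 0.69, adjusted p = 0.00035), at 0.76 without LB male 122 and NT male 6112 and 0.28 within groups. Gabra2 fell with it by r (-0.47, p = 0.0138, adjusted p = 0.0344) but not by rank (rho = -0.31, adjusted p = 0.194). That relation was weaker without the same animals, at -0.25, and was -0.33 within groups. Gabrb1 fell with the granule cell score by rank (rho = -0.57, adjusted p = 0.00926) but not by r (-0.42, p = 0.0284, adjusted p = 0.0621), at -0.69 without those animals and -0.25 within groups. Animals with more nuclear and fewer granule cell transcripts thus tended to have more Gabra5, but its highest levels were not at the highest deep nucleus scores. LB male 122 and NT males 6111 and 3113 led with 123.9, 103.9 and 81.4 CPM, at scores of 0.867, 0.76 and 0.298. These animals are among the males with high forebrain scores. NT males 6112 and 3111, with the highest deep nucleus scores (4.37 and 2.52), had 38.8 and 26.3 CPM.

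Gabrd rose with the granule cell score (r = 0.72, p = 0.00015, adjusted p = 0.000656). The relation was weaker without LB male 122 and NT male 6112 (r = 0.42) and did not pass by rank (rho = 0.32, p = 0.104, adjusted p = 0.181). Within groups r was 0.63, with those animals kept. Gabrd likewise fell with the deep nucleus score (r = -0.74, p = 0.00047, adjusted p = 0.00164). There r was -0.47 without NT males 3111 and 6112 and -0.63 within groups, and by rank it did not pass (rho = -0.43, adjusted p = 0.0598). NT male 6112 had both the lowest Gabrd and the most Slc17a6. Gabra2 rose with the deep nucleus score (r = 0.50, p = 0.0101, adjusted p = 0.0279; rho = 0.50, adjusted p = 0.0293), at 0.53 without 2 animals and 0.35 within groups. No member was related to the meningeal score at an adjusted p under 0.05, the nearest being Gabra2 (r = 0.44, p = 0.022, adjusted p = 0.0514).

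Gabra3 rose with the forebrain score over all 27 animals (r = 0.83, permutation test, adjusted p = 0.000117). So did Gabra2 (r = 0.75, adjusted p = 0.00014), Gabra5 (r = 0.72, adjusted p = 0.000525) and Gabra4 (r = 0.61, adjusted p = 0.00216). Gabra5 had rho = 0.49 (adjusted p = 0.0307), with r at 0.58 without NT males 3113 and 6111 and 0.76 within groups. Gabrb1, Gabrb2 and Gabrd did not pass. The 6 males with high scores lay 0.34 above the other 21 animals, the widest gap, and the next widest was 0.254. Correlations were also computed within each set, 14 in all, a choice made after seeing the data. Among the 21 animals Gabra3 rose with the score (r = 0.75, p = 6e-05, adjusted p = 0.00084; rho = 0.80, adjusted p = 0.00042), as did Gabra4 (r = 0.72, p = 0.00015, adjusted p = 0.00105; rho = 0.70, adjusted p = 0.00378) and Gabrb2 (r = 0.70, p = 0.00035, adjusted p = 0.00163; rho = 0.67, adjusted p = 0.00607), at 0.75, 0.67 and 0.67 without the 2 animals farthest out. Gabra2 rose too (r = 0.51, p = 0.0142, adjusted p = 0.0398), though not by rank (rho = 0.48, adjusted p = 0.0778), and was at 0.56 without 2 animals. Gabra5 did not pass there (r = -0.01, p = 0.951, adjusted p = 0.951). Among the 6 males Gabrd fell with the score (r = -0.93, exact permutation p = 0.0111, adjusted p = 0.0389; rho = -0.89, adjusted p = 0.0778), at -0.86 without 2 of them. Gabra5 (r = 0.86) and Gabra3 (r = 0.81) did not pass in these 6 (both exact permutation p = 0.0417, adjusted p = 0.0833).

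The beta subunits followed the gene length index. Gabrb2 rose with it (r = 0.91, rho = 0.89, p = 1e-05, adjusted p = 0.000117), at 0.86 without LB females 5022 and 8021 and 0.88 within groups. Gabrb1 fell with it (r = -0.74, rho = -0.74, p = 2e-05, adjusted p = 0.00014), at -0.69 without those animals and -0.62 within groups. Gabra4 rose with it (r = 0.63, rho = 0.55, p = 0.00037, adjusted p = 0.00144), at 0.46 and 0.61. LB female 5022 had the lowest index (-1.04) together with the lowest Gabrb2 and Gabra4, and LB female 8021 the highest index (0.86) with the highest Gabrb2. The index was 0.46 ± 0.143 in NT females (SD, n = 5), -0.02 ± 0.327 in NT males (n = 7), 0.04 ± 0.594 in LB females (n = 7) and -0.31 ± 0.246 in LB males (n = 8). With the index in the model the sex difference over all animals was -0.05 for Gabrb2 (SE 0.232, adjusted p = 0.9) and 0.16 for Gabrb1 (SE 0.158, adjusted p = 0.492), and that of Gabra5 was 3.22 (SE 0.798, adjusted p = 0.0143). Over settings with all animals the adjusted p ranged from 0.00659 to 0.9 for Gabrb2 and from 0.0229 to 0.492 for Gabrb1. Why libraries differed in this index was not tested.

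**Figure D4:**
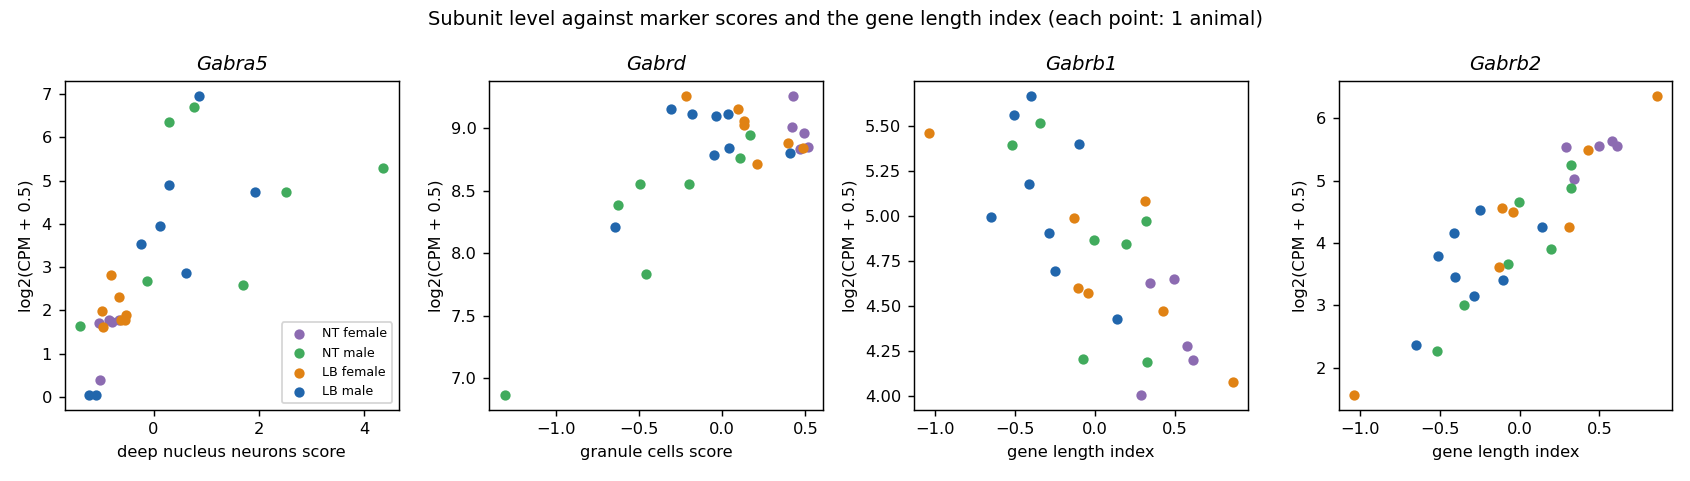
Log2(CPM + 0.5) of Gabra5 against the deep nucleus score, Gabrd against the granule cell score, and Gabrb1 and Gabrb2 against the gene length index, with each point 1 animal coloured by group. Gabrb2 rises and Gabrb1 falls along the same index (r = 0.91 and -0.74), and NT male 6112 lies alone at the lower left for Gabrd.

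Non-member genes among those most like each subunit over 27 animals, out of 12100 tested, were picked by Pearson r. They were Sertm1 (0.96), Cpne4 (0.96) and Myo5b (0.95) for Gabra5, Gucy1a3 (0.93), Grm5 (0.92) and Pcdh7 (0.92) for Gabra2, and RGD1563441 (0.96), Slitrk3 (0.94) and Tenm2 (0.94) for Gabra3. For Gabra4 they were Cntn4 (0.92), Celf2 (0.90) and Nrcam (0.89). For Gabrb2 they were Hipk3 (0.97), Zkscan1 (0.96) and Slk (0.96), and for Gabrb1 Sec61a2 (0.92) and Gng10 (0.88). For Gabrd they were Sstr3 (0.94), Calb2 (0.93), which marks granule cells in the cerebellum, and Rem2 (0.92).

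Of a list of 59 other genes of inhibitory transmission, 50 could be tested. Over all animals 11 were higher in males and 11 lower, 22 of 50 beside 29.3% of all genes tested, with a median log2 fold change of -0.03 beside 0.02 for all genes. In NT 7 were higher and 2 lower, 9 of 50 beside 15.2% of all genes (median -0.02 beside 0.03), and in LB 0 passed (8 at an unadjusted p under 0.05, and 2 by DESeq2). Treatment gave 0 calls by each of the 3 tools, with 7 genes among males, 5 among females and 5 over all animals at an unadjusted p under 0.05. With the forebrain score in the model the sex difference gave 20 calls over all animals and 11 in NT, and with the makeup score it gave 0 in both. With the title sets as a random block it gave 1 and 0, with limma-voom 15 and 5, and with DESeq2 25 and 11.

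Among the remaining subunits, Gabra6 was lower in males over all animals (log2 fold change -0.62, SE 0.214, adjusted p = 0.0314) and in NT (-1.04, SE 0.32, adjusted p = 0.0313). Gabra6 makes the partner of the delta subunit in granule cells, and its NT means were 587.9 CPM in males and 1212 CPM in females. Genes that make, pack and take up GABA were lower in 4 of 8 cases over all animals and higher in 1, with the lower ones including Gad2 (-0.85), Gad1 (-0.31), both GABA synthesis enzymes, and Slc32a1 (-0.28), the vesicular GABA transporter.

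Genes of anchoring and trafficking split, with 4 of 19 higher and 4 lower over all animals. Shisa7 (1.20, adjusted p = 0.0124), an auxiliary subunit of GABA-A receptors, Plcl1 (0.92, adjusted p = 0.0054) and Trak2 (0.53, adjusted p = 0.00749) were higher in males. Lhfpl4 (-0.65, adjusted p = 0.0275), which helps bring receptors to inhibitory synapses, Nlgn2 (-0.46, adjusted p = 0.0154), an adhesion protein of those synapses, and Ubqln1 (-0.36, adjusted p = 0.0137) were lower. In NT Shisa7, Plcl1, Trak2 and Rdx, which anchors Gabra5-containing receptors, were higher, the last by 0.51 (SE 0.159, adjusted p = 0.0347), and Ubqln1 was lower.

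Of the glycine receptor and transporter genes 2 of 5 were higher in males over all animals and 1 in NT. Glra1, the adult glycine receptor alpha subunit typical of brainstem, was higher in males by 3.02 over all animals (SE 0.745, adjusted p = 0.00509) and by 4.63 in NT (SE 1.16, adjusted p = 0.0149), where means were 7.82 CPM in males and 0.304 CPM in females. The medians were 0.619 and 0.316 CPM, and NT males ranged from 0.0752 to 25.7 CPM, so the mean rested on a few animals. The part of brainstem tissue in this difference was not tested. Glra2 was higher over all animals (1.57, adjusted p = 0.0389), as was Kctd16 (1.73, adjusted p = 0.0271), a partner of GABA-B receptors. Car2 (0.54) and Tspo (0.75) were higher and Car7 (-0.39) lower over all animals, and Dbi, which acts at the benzodiazepine site, was higher in NT (0.66, SE 0.225, adjusted p = 0.0466).

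**Figure D5:**
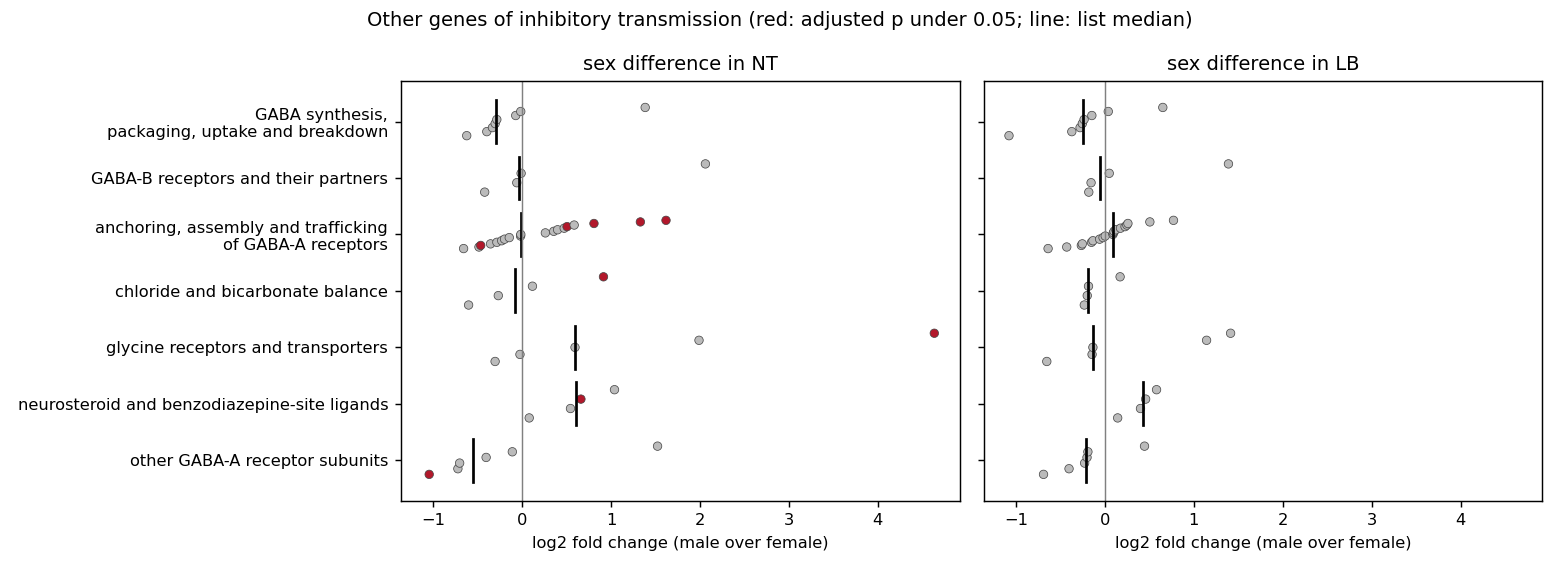
Log2 fold change of males over females in NT and LB for the tested genes of 7 lists of inhibitory transmission, with a black line at each list's median and red points past an adjusted p of 0.05. In NT 9 of 50 genes are red, with Glra1 farthest out at 4.63 and Gabra6 lowest at -1.04, and in LB 0 are.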

How the data were processed

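Messenger RNA was sequenced from IP punches of 27 rats. Per the submitters' processing notes the authors used STAR 2.5.2b, featureCounts and Subread 1.5.1 with the rn6 genome, and deposited raw counts of reads per gene for 17321 genes, without normalization, with exon coordinates and lengths. The treatment of strand and of reads mapping to several places is not given in the sources used here, so counts of genes with close copies are less certain. Reads outside the annotated exons are not in the counts. The study left out samples with low RNA integrity.

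Groups came from the sample labels, and animals are named by sample title. From the counts, genes were kept with filterByExpr (minimum count 10, minimum total 15), which left 12107 with all 7 subunits. Libraries were normalized by TMM, and 1 robust quasi-likelihood model of the 4 groups was fitted with edgeR 4.0.16 in R 4.3.3. Benjamini-Hochberg adjustment covered every gene tested, at a threshold of 0.05. Each SE is the size of the log2 fold change over the root of F. Relations used log2(CPM + 0.5) and Benjamini-Hochberg adjustment over 35 relations. Total counts set a precision that covers counting error only. Among 80 pairs of animals within groups 0 had identical counts. Whether the animals of a set with like titles were littermates is not stated.

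Alternatives were DESeq2 1.42.0, limma-voom (limma 3.58.1), sets of like titles as a random block (consensus correlation 0.17), RLE, upper-quartile or library size normalization, no filter, 10 counts in every animal, only the groups compared, covariates for tissue makeup and meninges, a prior count of 2 in place of 0.125, and each animal left out. Chosen after seeing the data were covariates for forebrain markers and gene length. The subunits and gene lists were chosen with earlier results of these data known. The genes named were all 7 subunits, listed genes past the threshold in treatment differences or the interaction, at most 8 listed genes per direction with the largest log2 fold change in each sex difference, and the 3 most similar genes per subunit. Some genes are not reported here. Marker genes are given as lists, except Slc17a6, which was chosen after its values were seen. Promoters came from RefSeq.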

Additional observations from a re-analysis of the deposited data

Results flagged for a closer look

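Within groups, 5 of 28 tests for an animal far from the others were met. A rate of about 1 in 20 by chance holds for independent, normally distributed values. The rule used CPM without logs, and the 28 tests share animals, so no excess over chance can be read from this count. Gabra4 in NT male 6111 was at 49.2 CPM with the next animal at 13.2 CPM. Gabra5 in NT female 1011 was at 0.804 CPM with the next at 2.78 CPM. Gabra5 in LB male 122 was at 124 CPM with the next at 29.2 CPM, and Gabrd in the same animal was at 296 CPM with the next at 440 CPM. Gabrb2 in NT female 2013 was at 32.0 CPM with the next at 45.9 CPM. NT male 6111 and LB male 122 are among the 6 males with high forebrain scores, and the part of forebrain tissue in these values was not tested.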

How the results depend on the processing

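Calls for the members depended on the model. In the sex difference over all animals 4 passed, against 1 with limma-voom and 0 with the title sets as a random block, the makeup score or the meningeal score, and 3 to 5 with each animal left out. With the forebrain score 3 passed, Gabra4, Gabra5 and Gabrb2. With the gene length index in the edgeR model 4 passed, but not the same 4. Gabra3 (1.22, adjusted p = 0.0346) and Gabrd (-0.505, adjusted p = 0.036) then passed beside Gabra2 and Gabra5, while Gabrb1 and Gabrb2 did not. In NT 1 passed, against 2 with DESeq2 and with library size alone, 3 with the gene length index, 0 with limma-voom, the random block, the makeup score, the meningeal score and at least 10 counts in every animal (which drops Gabra5), and 0 to 3 with each animal left out. In LB 0 passed, against 1 with DESeq2 and 0 to 1 with each animal left out. In the treatment differences and the interaction 0 passed in every setting run. Of 652 member values in other settings 36 changed sign, and the cause was not tested.

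Signs changed in values that had not passed, and in none that had. Under limma-voom they did for Gabra4 in the LB sex difference (0.147), Gabra5 in the treatment difference over all animals (-0.209), and Gabra2 (0.0533) and Gabra3 (0.0551) in the interaction. Under the random block the same values were 0.217, -0.202, 0.0585 and 0.0578. With the makeup score they were Gabrd in sex over all animals (0.00105) and in LB (0.123), and Gabra2 (0.0801) and Gabra3 (0.00419) in the interaction. With the meningeal score they were Gabra4 in the LB sex difference (0.113), Gabra5 in treatment over all animals (-0.221) and Gabra2 in treatment of females (0.0811). With the forebrain score they were Gabra3 (-0.219) and Gabrd (0.0393) in the LB sex difference, Gabrd in treatment of females (-0.0311) and Gabrb2 in the interaction (-0.0144).

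With the gene length index the signs changed for Gabra4 in sex over all animals (0.705) and within NT (0.323) and LB (1.09), and for Gabrb2 within LB (0.222). For treatment over all animals they changed for Gabra2 (0.303), Gabra3 (0.0756), Gabra4 (0.13), Gabra5 (-0.0863) and Gabrb2 (0.184), in males for Gabra2 (0.257), Gabra4 (0.513) and Gabrb2 (0.455), and in females for Gabra2 (0.348), Gabra3 (0.227) and Gabrd (-0.157). Gabrd in treatment of females was -0.0536 with library size alone and -0.000548 with no filter. The relation of Gabra2 to the granule cell score was r = -0.413 with library size alone and no longer passed, and that of Gabra4 to the deep nucleus score was -0.00626 with log2(CPM + 2).

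With each animal left out, the range crossed 0 for Gabra4 in the LB sex difference (-0.269 to 0.151). It did so in treatment over all animals for Gabra2 (-0.402 to 0.00326) and Gabra5 (-0.479 to 0.267), in males for Gabra2 (-0.731 to 0.0886) and Gabra4 (-0.485 to 0.39), and in females for Gabra2 (-0.336 to 0.114), Gabra3 (-0.303 to 0.0204) and Gabrd (-0.0369 to 0.0864). In the interaction it did so for Gabra2 (-0.658 to 0.171), Gabra3 (-0.714 to 0.0566) and Gabrb2 (-0.105 to 0.586). No paired analysis was possible because the labels give no replicate numbers shared between groups. The lowest counts, 8 for Gabra5 and 16 for Gabra4, limit the precision of single animals.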

Other observations

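Among LB females, Gabra4 was at 0.914 to 7.38 CPM in 5021, 5022 and 5023 and at 9.86 to 24.3 CPM in 8021, 8022, 8023 and 8024. Gabrb2 was at 2.46 to 23 CPM and at 18.5 to 81.6 CPM in the same sets. NT males 6111 and 6112 had Gabra3 at 52.3 and 36.4 CPM, against 4.77 to 18.9 CPM in the 5 other NT males, and Gabrd at 227.7 and 116.2 CPM, against 333.6 to 493.3 CPM. LB males 121, 122 and 123 had Gabrb1 at 41.6 to 50.2 CPM, and the 5 other LB males at 21.02 to 35.7 CPM. What the titles stand for is not stated, and these sets were not compared by a test.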
